A study of Mus musculus with 18 samples.

Results

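The mitosis and chromosome segregation genes described here are 45 named mouse genes that act between mitotic entry and the separation of the daughter cells. They were taken by symbol from the deposited count table, where all 45 were among 23420 gene symbols. Every one of the 45 had at least 1 count in each of the 18 libraries. They were read in polysome-tagged brain tissue with and without a glioma, and by function they fall into 9 roles. Mitotic entry has 8 genes, and the kinases Aurka, Plk1, Pbk and Melk make a role of 4. The spindle checkpoint has 4, the centromere and kinetochore 6, the chromosomal passenger complex 3, and cohesion, its release and the ubiquitin steps of mitotic exit 5. Chromosome structure has 6, the spindle 5 and cytokinesis 4.

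Mitosis begins when the kinase Cdk1 is activated by cyclins A and B. Condensins then compact the chromosomes, kinetochores attach them to spindle microtubules, and the spindle checkpoint holds back the anaphase-promoting complex until every kinetochore is attached. That complex then marks cyclin B and the inhibitor of separase for destruction, sister chromatids part, and a contractile ring divides the cell. Most of these genes are transcribed in late S phase, G2 and M phase, under the DREAM repressor complex, B-Myb and FoxM1, so their RNA is abundant in dividing cells and scarce in cells that have left the cycle. Neurons of the adult cortex do not divide, whereas glioma cells and some oligodendrocyte precursors do.

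All libraries came from brain of Camk2a-Cre-Rpl22HA mice, in which the Camk2a promoter, active in forebrain excitatory neurons, drives Cre, and Cre-expressing cells make HA-tagged Rpl22, a protein of the large ribosomal subunit. Input was the total RNA, and IP was the polysomal RNA pulled down through the tag. Control mice had no tumor, tumor mice carried glioma cells implanted into the cortex, and AZD mice carried the tumor and were treated with AZD8055, an inhibitor of the mTOR kinase. The sources used here do not give the glioma line, the dose and length of treatment, the ages of the mice, or whether the implanted cells carry the tag. With 3 conditions and 2 fractions there were 6 groups, each of 3 libraries. No label says that a library stands for its own mouse, so the p-values speak only of spread among libraries, some of which may be technical. Library names place control and tumor input in set PD013, control and tumor IP in set PD015, and all AZD libraries in set PD028. A set therefore holds both sides when tumor is compared with control in either fraction, and when IP is compared with input under AZD. In the other comparisons of groups the set and the condition or fraction cannot be told apart.

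Promoter windows from RefSeq (GRCm38.p6, 250 bases before to 50 after the gene start) were matched by symbol for 38 of the 45 genes, in 40 windows. Genes of this program are known for CCAAT boxes, which the factor NF-Y binds, close to a cell cycle genes homology region (CHR), the element that recruits DREAM and B-Myb. Both were searched on either strand, the first as CCAAT. For the CHR the letters searched were TTTGAA, and its variant form TTCGAA was counted with it. CCAAT was found in 30 of the 38 genes (78.9%), against 41.1% of the 27025 genes in the table, and at 2 or more places in 52.6% against 13.3%. A CHR was likewise found in 30 (78.9%), against 21.7% of all genes. Both motifs stood in the windows of 71.1% of the mitosis genes and of 9.65% of all genes, and neither in 13.2% and 46.9%. Among 25 DNA replication genes with a window, CCAAT was found in 60% and a CHR in 24%. At 1 place in the mitosis genes a CCAAT and a CHR overlap. These matches describe letters in a window and do not show that a factor is bound.

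The promoters printed below show how the motifs are arranged in genes from mitotic entry (Cdk1, Ccnb2), exit (Cdc20, Ube2c, Espl1) and the kinetochore (Cenpf), and in Anln, which was not called higher in tumor. Each line runs 5′ to 3′ from 120 bases before to 20 after the start, with both motifs in capitals. CCAAT on the opposite strand reads ATTGG, and TTTGAA reads TTCAAA.
Cdk1, chr10:69352893-69353032, minus strand: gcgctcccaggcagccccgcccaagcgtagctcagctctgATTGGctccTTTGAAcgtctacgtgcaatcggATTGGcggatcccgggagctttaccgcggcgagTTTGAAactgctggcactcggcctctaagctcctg
Ccnb2, chr9:70421535-70421674, minus strand: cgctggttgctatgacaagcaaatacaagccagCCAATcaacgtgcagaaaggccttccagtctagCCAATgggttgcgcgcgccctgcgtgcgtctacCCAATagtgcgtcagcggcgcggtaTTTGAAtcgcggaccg
Cdc20, chr4:118437324-118437463, minus strand: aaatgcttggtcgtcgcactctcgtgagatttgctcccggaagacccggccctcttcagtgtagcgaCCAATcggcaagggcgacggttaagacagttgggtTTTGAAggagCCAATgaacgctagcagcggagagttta
Ube2c, chr2:164769809-164769948, plus strand: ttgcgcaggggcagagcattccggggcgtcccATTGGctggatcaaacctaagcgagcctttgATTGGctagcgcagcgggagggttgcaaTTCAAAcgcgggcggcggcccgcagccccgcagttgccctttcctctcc
Cenpf, chr1:189688067-189688206, minus strand: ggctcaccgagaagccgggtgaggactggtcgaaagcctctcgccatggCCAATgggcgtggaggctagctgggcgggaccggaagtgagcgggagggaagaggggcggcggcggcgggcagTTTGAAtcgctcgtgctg
Espl1, chr15:102296173-102296312, plus strand: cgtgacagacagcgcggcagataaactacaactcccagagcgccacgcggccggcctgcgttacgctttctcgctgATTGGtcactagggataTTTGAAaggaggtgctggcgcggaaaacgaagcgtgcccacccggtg
Anln, chr9:22389187-22389326, minus strand: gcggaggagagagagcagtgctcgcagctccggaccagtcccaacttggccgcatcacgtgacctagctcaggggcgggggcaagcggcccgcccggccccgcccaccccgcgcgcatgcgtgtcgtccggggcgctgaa
Ccnb2 holds 3 CCAAT boxes upstream of a CHR that begins 4 bases after the start. In Espl1 and Ube2c the CHR begins at -27 and -29. The Anln stretch holds neither motif, and its window has a CHR only at 21 and 28 bases after the start. The whole windows of Melk, Mad2l1, Nuf2, Birc5 and Nusap1 hold neither motif.

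**Figure D1:**
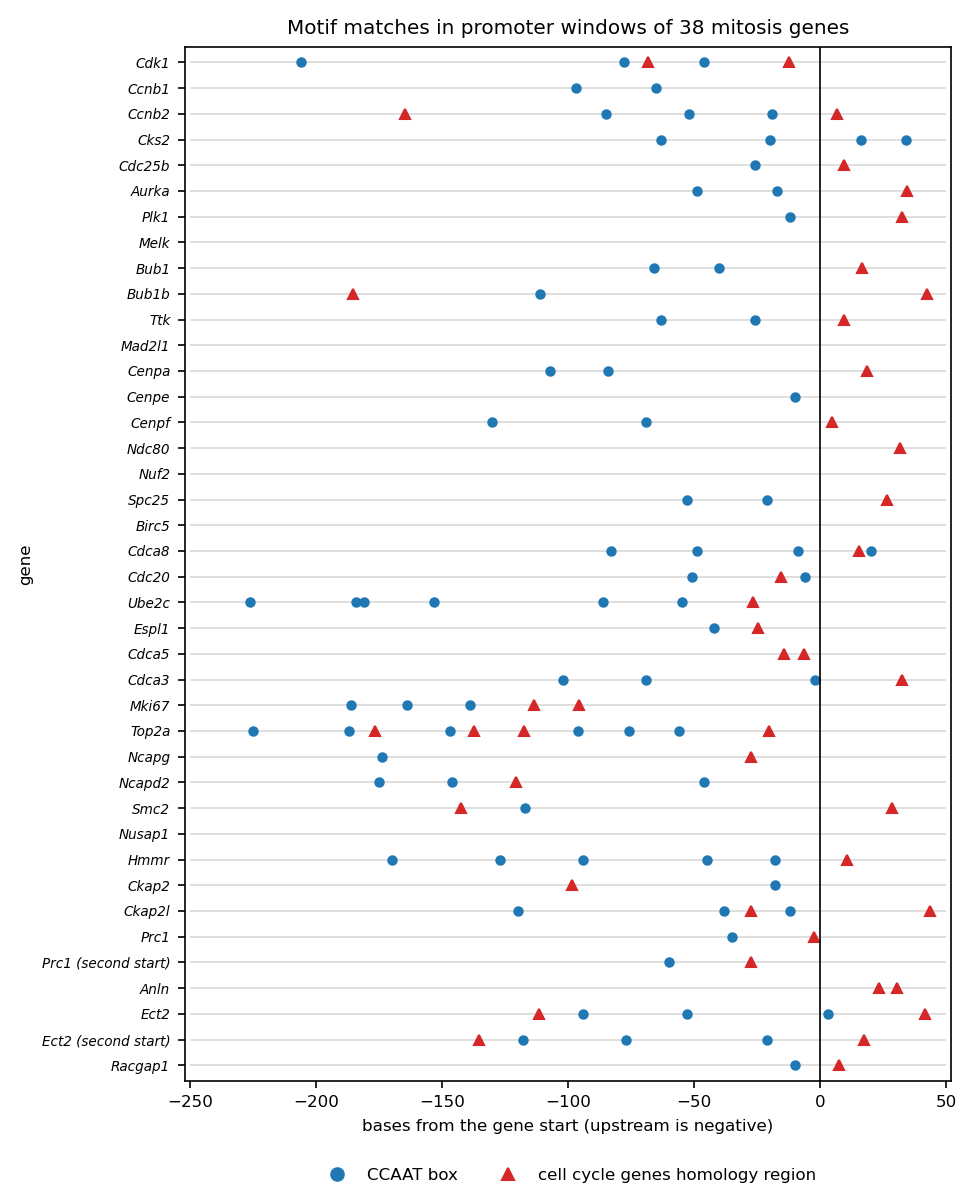
Matches to CCAAT (circles) and to the CHR (triangles) in the promoter windows of 38 mitosis genes; the x axis is the distance in bases from the gene start and each row is a window. CHR matches stand mostly near the start, CCAAT matches are spread upstream of it, and 5 genes have none of either.

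The summed level of the 45 genes, in counts scaled to library size (CPM), set the groups apart. It lay between 195 and 209.5 in control input, 174 and 192 in control IP, 1864 and 2063 in tumor input, and 1582 and 1648 in tumor IP. The AZD input libraries did not lie together: replicate 1 stood at 2418, above every tumor library, while replicates 2 and 3 stood at 1187 and 979.8, below every tumor library. AZD IP lay at 573, 304 and 318, with replicate 1 again highest. In AZD input, replicate 1 was the highest of the 3 libraries for 44 of the 45 genes, and in AZD IP for 41 of 45. The same held for 5590 of all 15511 genes tested in input and 6430 of 15734 in IP. AZD input replicate 1 exceeded all 3 tumor input libraries for 39 of 45 genes, as it did for 27.1% of all genes tested. Replicates 2 and 3 were both below all 3 tumor libraries for 39 of 45, against 27.4% of all genes. The median ratio of replicate 1 to the mean of the other AZD input libraries was 2.26 for the mitosis genes, 1.48 for 30 DNA replication genes, 1.21 for 12 glioma-lineage genes and 0.991 for all genes. The labels give replicate 1 the same treatment as the other AZD libraries, and whether it was treated as they were was not tested, so AZD input means are to be read with that doubt. Counts called among the 45 genes in comparisons with AZD libraries are given with and without replicate 1. Replicate 1 was set apart by the values of these same genes, so fits without it are descriptions and no independent test. For such fits the share of all genes is given only for AZD against tumor in input. Other values, such as those of other gene lists and of single genes, include it unless stated.

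**Figure D2:**
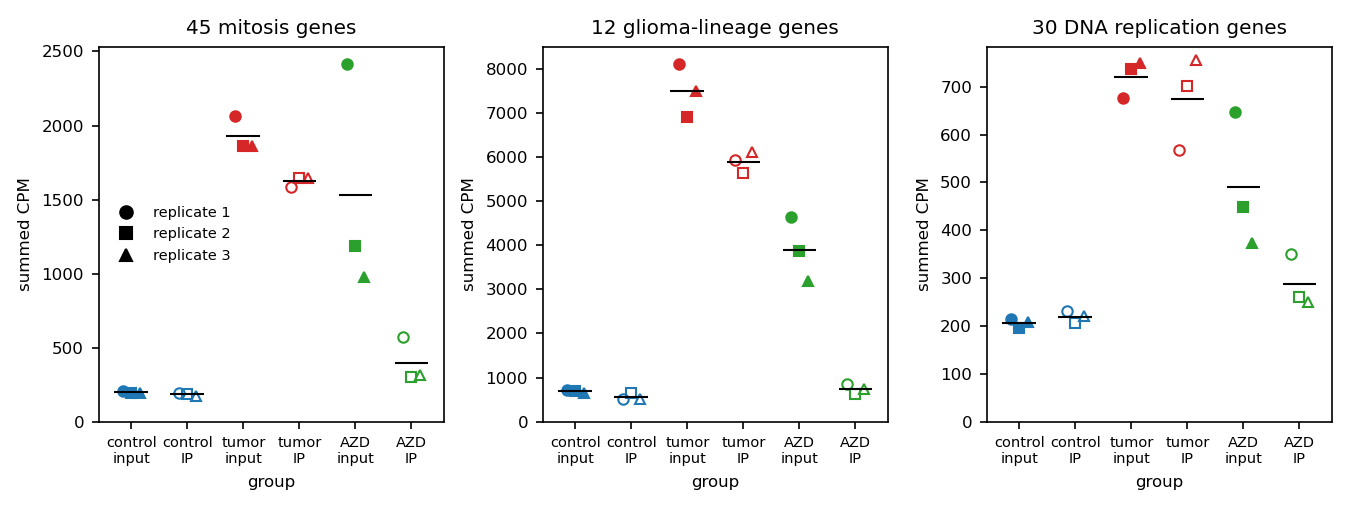
Summed CPM per library for the 45 mitosis genes, 12 glioma-lineage genes and 30 DNA replication genes; each point is a library, its shape gives the replicate number and the line is the group mean. AZD input replicate 1 stands at 2418 CPM for the mitosis genes, above the tumor libraries, but at 4641 CPM for the glioma-lineage genes, below them.

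Total counts per library lay between 13561511 and 34178417. The lowest count of a mitosis gene was 1 in a control library, 6 in an AZD library and 44 in a tumor library, so some levels in control rest on few counts. Camk2a, whose promoter drives the Cre, stood higher in IP than in input in control (log2 fold 0.68 ± 0.12 SE) and AZD (1.43 ± 0.30), while in tumor the value was 0.75 ± 0.40 (edgeR adjusted p 9.67e-04, 0.00333 and 0.336). Pdgfra, the receptor of the oligodendrocyte precursor lineage, was at 102 ± 23.6 CPM (SD, n = 3) in control input and 2688 ± 545 in tumor input. The list of that lineage, called glioma-lineage genes here, was not chosen from a description of the implanted line. Of the markers of other cells, every gene in the excitatory neuron, inhibitory neuron, astrocyte, oligodendrocyte, microglia and endothelial lists had counts in every group.

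The first comparison asked what the tumor adds to cortex. In input, 43 of the 45 mitosis genes were higher in tumor than in control and 0 lower, with a median log2 fold of 4.21. Of all 15511 genes tested, 24.5% were higher and 23.6% lower, 48.1% in either direction, with a median of -0.01. In IP, 44 rose and 0 fell, with a median of 4.04, against 26.1% higher and 20.9% lower of 15734 genes (47.0% in either direction) and a median of 0.02. The same 43 genes rose in both fractions. All 3 tumor libraries exceeded all 3 control libraries for 44 of 45 genes in each fraction, which held for 30.4% of all genes in input and also in IP. Pdgfra and the other glioma-lineage genes rose as well, 12 of 12 in each fraction, while the excitatory neuron list was lower in input for 10 of 10 genes. Mean summed levels in input were also lower in tumor for the inhibitory neuron, astrocyte, oligodendrocyte, microglia and endothelial lists. The inhibitory neuron list was at 1081 CPM in control input and 622 in tumor input, and the oligodendrocyte list at 3037 and 1570. In bulk tissue, fewer cells of a type and less RNA per cell cannot be told apart.

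**Figure D3:**
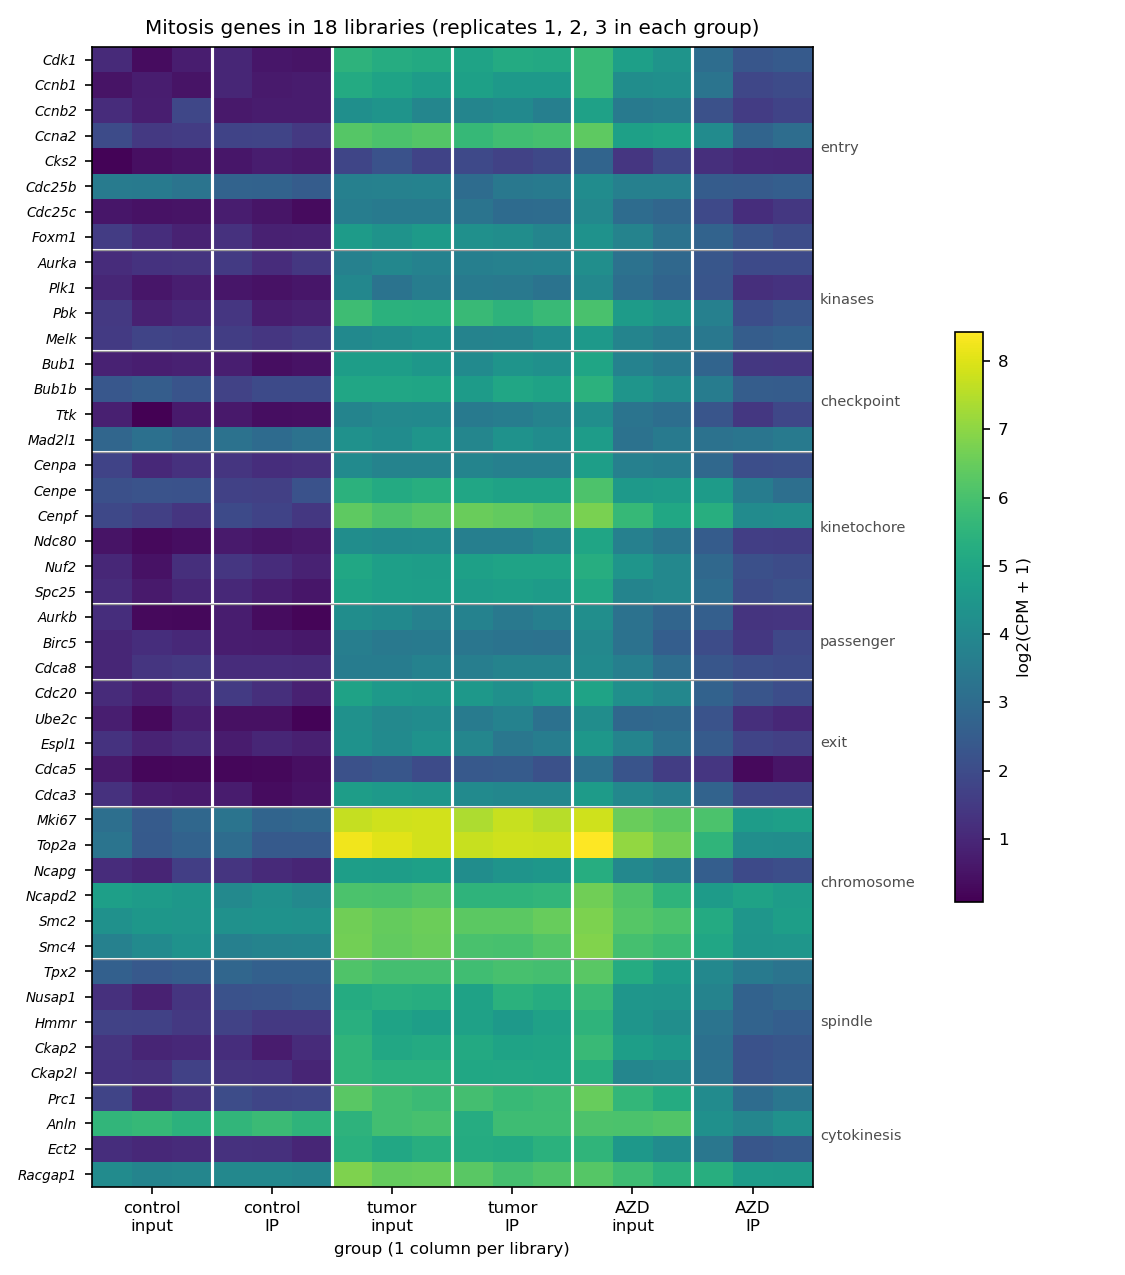
Levels of the 45 mitosis genes, as log2(CPM + 1), in 18 libraries; rows are genes in order of role and each column is a library, with replicates 1, 2 and 3 from left to right in each group. The tumor columns and the first AZD input column are brightest, and the row of Anln is bright in control as well.

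Among the genes of mitotic entry, Cdk1, the kinase that starts mitosis, was at 1.08, 0.277 and 0.673 CPM in control input against 43.5, 37.3 and 34.2 in tumor input. The groups were far apart, with a log2 fold of 5.82 ± 0.46 (SE, adjusted p 8.06e-06 by edgeR's quasi-likelihood test, as for every adjusted p here). In IP it was at 0.977, 0.503 and 0.436 in control and 29.5, 35.1 and 34.0 in tumor (5.67 ± 0.30). Its partners moved with it: cyclin B1 (Ccnb1) rose by 5.82 ± 0.53 in input and 5.04 ± 0.45 in IP, cyclin B2 (Ccnb2) by 3.51 ± 0.48 and 4.50 ± 0.25, and cyclin A2 (Ccna2) by 4.97 ± 0.44 and 4.70 ± 0.34. Foxm1, the transcription factor of the G2 and M program, rose by 4.03 ± 0.35 and 4.03 ± 0.29. Cks2, a small subunit bound to Cdk1, rose by 3.20 ± 0.56 and 2.17 ± 0.28. The phosphatases that activate Cdk1 differed. Cdc25c rose by 4.54 ± 0.39 and 4.04 ± 0.37. Cdc25b was at 10.8, 10.5 and 8.81 CPM in control input against 12, 12.3 and 12.8 in tumor input, a log2 fold of 0.29 ± 0.17 that did not pass (adjusted p 0.175) although the libraries did not overlap. In IP it was at 5.67, 5.44 and 4.69 in control and 7.14, 9.70 and 10.2 in tumor, and rose by 0.81 ± 0.16 (adjusted p 0.00224).

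All 4 other kinases rose in both fractions. Aurora A (Aurka), which matures centrosomes, rose by 3.21 ± 0.36 in input, and the polo-like kinase Plk1 by 3.96 ± 0.42. Pbk, a mitotic kinase of the MAPKK family, was at 1.78, 0.776 and 1.04 CPM in control input against 56.3, 41.3 and 40.3 in tumor input. Its log2 fold of 5.25 ± 0.51 in input and 5.54 ± 0.50 in IP was the highest of the role. Melk rose by 2.95 ± 0.29 and 2.96 ± 0.26.

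The spindle checkpoint genes Bub1, Bub1b and Ttk rose by 4.94 ± 0.44, 2.85 ± 0.32 and 4.94 ± 0.51 in input, and by 5.22 ± 0.49, 3.42 ± 0.30 and 4.84 ± 0.33 in IP. Mad2l1, which encodes the protein that binds Cdc20 until kinetochores are attached, started from a higher level. It was at 6.11, 7.87 and 6.42 CPM in control input against 18.8, 16.8 and 20.4 in tumor input. The groups did not overlap, and its rises were 1.43 ± 0.35 (adjusted p 0.00681) in input and 1.09 ± 0.14 in IP.

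At the kinetochore, all 6 genes rose in both fractions. Ndc80, Nuf2 and Spc25, subunits of the complex that grips microtubules, rose by 5.63 ± 0.54, 4.97 ± 0.43 and 4.89 ± 0.40 in input. The large kinetochore protein Cenpf was at 2.67, 2.16 and 1.59 CPM in control input against 80.2, 68.1 and 75.0 in tumor input, and its rise was 5.10 ± 0.44. Its motor partner Cenpe rose by 3.45 ± 0.40 and the centromeric histone Cenpa by 3.12 ± 0.38. In the passenger complex, which corrects wrong attachments, Aurora B (Aurkb) rose by 4.74 ± 0.59, survivin (Birc5) by 3.25 ± 0.38 and borealin (Cdca8) by 2.98 ± 0.31 in input. In IP their rises were 4.93 ± 0.56, 3.83 ± 0.25 and 3.44 ± 0.17.

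Genes of cohesion and exit rose for 5 of 5 in input. Cdc20, the activator of the anaphase-promoting complex, was at 1.15, 0.720 and 1.10 CPM in control input against 28.8, 22.8 and 21.8 in tumor input (4.61 ± 0.32). The complex's ubiquitin-conjugating enzyme Ube2c rose by 4.92 ± 0.49, separase (Espl1) by 3.95 ± 0.36, sororin (Cdca5), which protects cohesion, by 3.48 ± 0.61, and Cdca3, a trigger of mitotic entry, by 4.67 ± 0.35. In IP all 5 rose as well, from Espl1 at 3.91 ± 0.32 to Ube2c at 5.26 ± 0.52.

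Of the chromosome structure genes, Top2a, the topoisomerase that untangles sister chromatids, was at 8.72, 4.49 and 5.44 CPM in control input against 302, 267 and 229 in tumor input. It rose by 5.41 ± 0.49 in input and 5.38 ± 0.39 in IP. The proliferation marker Mki67, which coats mitotic chromosomes, was at 7.64, 4.54 and 6.30 against 205, 224 and 233, a rise of 5.15 ± 0.41. The condensin subunits covered a wide range. Ncapg rose by 4.21 ± 0.46, Smc4 by 2.51 ± 0.27, Smc2 by 2.16 ± 0.18 and Ncapd2 by 1.45 ± 0.23. The last 3 already stood at 12.5 to 26.5 CPM in control input.

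All 5 spindle genes rose in both fractions: Tpx2, which activates Aurora A on microtubules, by 3.70 ± 0.37 in input, Nusap1 by 4.93 ± 0.42, Hmmr by 3.90 ± 0.37, Ckap2 by 5.0 ± 0.38 and Ckap2l by 4.63 ± 0.41. For cytokinesis, Prc1, the bundler of the central spindle, rose by 5.26 ± 0.41, the RhoA activator Ect2 by 4.98 ± 0.39 and its partner Racgap1 by 2.70 ± 0.20. Anln, which encodes the contractile ring protein anillin, was the exception in both fractions. It was at 46.6, 50.2 and 42.6 CPM in control input against 43.4, 59.1 and 62.7 in tumor input, and at 46.8, 52.9 and 44.7 in control IP and 36.7, 56.5 and 55.9 in tumor IP. The groups overlapped, and the log2 folds were 0.23 ± 0.13 (adjusted p 0.186) and 0.08 ± 0.16 (adjusted p 0.712). Without tumor input replicate 1 the value in input was 0.37 and passed.

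**Figure D4:**
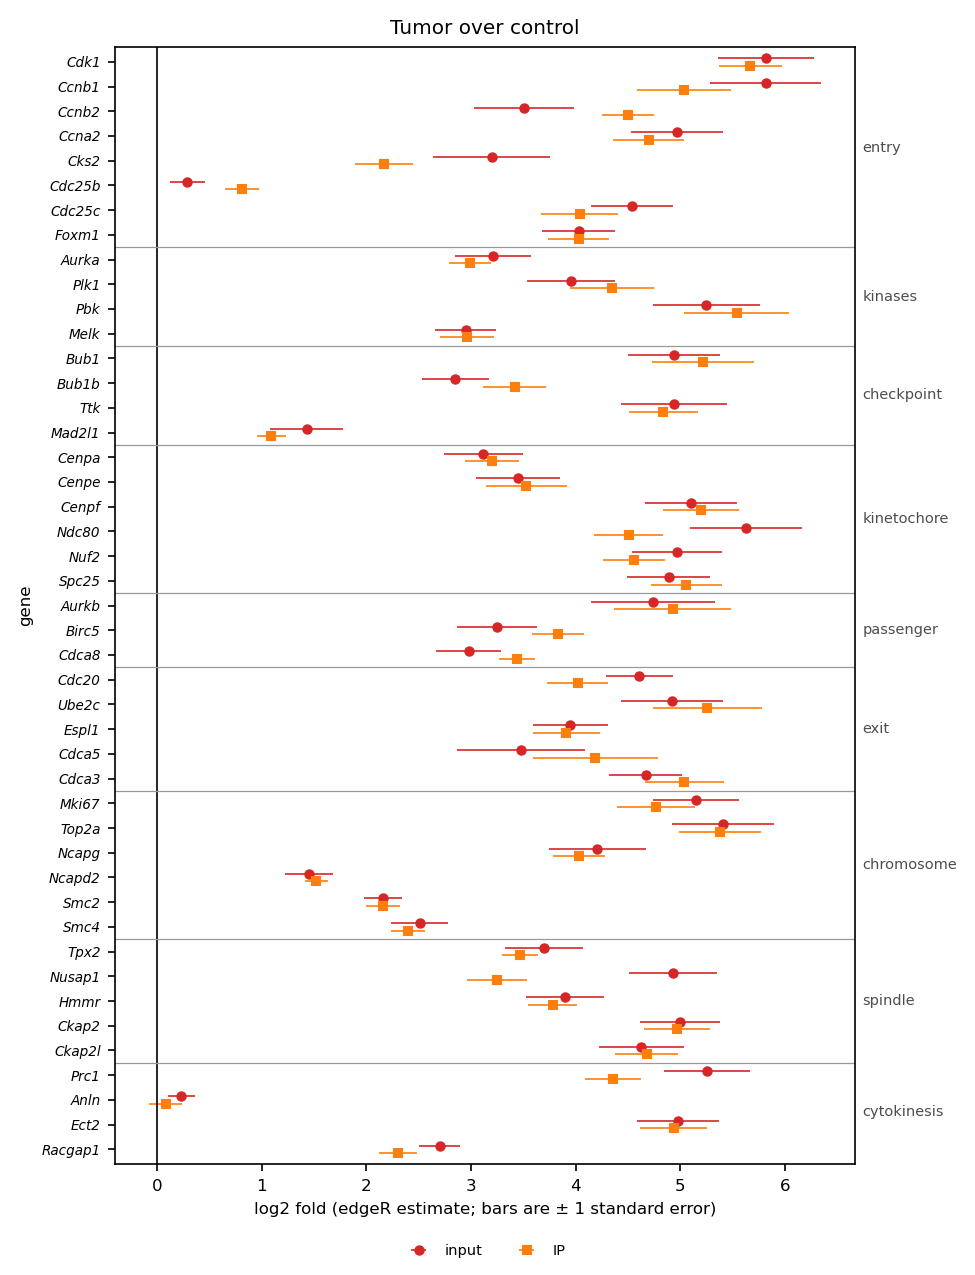
Log2 fold of tumor over control for each mitosis gene in input (circles) and IP (squares), as edgeR estimates with bars of 1 standard error, in order of role. Most genes lie between 2 and 6 in both fractions, and Anln and Cdc25b lie close to 0.

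The size of the rise went with the level in control. The 9 genes at 5 CPM or more in control input, a split chosen after the values were seen, had a median log2 fold of 2.16, between 0.23 (Anln) and 5.41 (Top2a). For the other 36 the median was 4.62, between 2.85 and 5.82. A low level in control enters both the split and the fold, so the relation is a description. By symbol, 16 of the 45 genes overlap the span of another gene, and 8 overlap a gene at 1 CPM or more. Anln overlaps 9530077C05Rik, at 6.31 to 11.3 CPM over all libraries. Ncapd2 overlaps Scarna10, a small Cajal body-specific RNA gene at 59.6 to 274 CPM in the input libraries and 8.89 to 75.7 in the IP libraries. The others are Ccna2 with Exosc9, Aurka with Cstf1, Cdc20 with Elovl1, Ncapg with Lcorl, Nusap1 with Oip5, and Prc1 with Rccd1. The sources used here do not say whether counting used strand, so reads in these overlaps may be shared.

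A further 120 genes of the same processes, from lists by complex, showed where the rise was broad. In tumor input 90 of the 120 were higher and 2 lower (median 1.38), and in IP 93 were higher and 3 lower (median 1.18). The shares of all genes were 24.5% higher and 23.6% lower in input, and 26.1% and 20.9% in IP. Mitotic kinesins, the motors of the spindle, rose for 12 of 12 in input (median 3.91), with Kif2c at 5.52 ± 0.46 and Kif20a at 4.61 ± 0.38. The other kinetochore genes rose for 26 of 28 (median 1.99), led by Cenpi (3.58 ± 0.31) and Kntc1 (4.22 ± 0.39), while Mis12 (0.28 ± 0.12, adjusted p 0.0687) and Cenpw (0.32 ± 0.32, adjusted p 0.411) did not pass. Cytokinesis genes rose for 7 of 8, among them Iqgap3 (4.31 ± 0.38) and Shcbp1 (3.75 ± 0.35). Other spindle and centrosome genes rose for 16 of 21 (median 1.39), with Gtse1 at 4.57 ± 0.34 and Troap at 4.48 ± 0.40, and other entry genes for 9 of 12 (median 1.89), with Lin9 at 1.83 ± 0.17 and the histone kinase Gsg2 at 4.84 ± 0.57.

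Complexes that also serve cells outside mitosis had smaller medians. Their counts are to be set against 24.5% higher and 23.6% lower of all genes in input. Of 18 subunits and regulators of the anaphase-promoting complex, 9 rose and 1 fell (median 0.35). Its inhibitor Fbxo5 rose by 2.70 ± 0.29 and the subunit Cdc16 by 0.59 ± 0.10, and Anapc13 (0.47 ± 0.18, adjusted p 0.0545) and Anapc16 (0.30 ± 0.13, adjusted p 0.0860) did not pass. Of 12 cohesin genes 5 rose (median 0.25): the acetyltransferase Esco2, active in S phase, by 4.93 ± 0.54 and Rad21 by 1.20 ± 0.14, whereas Smc3 was at 0.26 ± 0.11 (adjusted p 0.0621). Of the other condensin subunits, Ncaph and Ncapg2 rose by 3.26 ± 0.44 and 2.24 ± 0.34, and Ncapd3 and Ncaph2, at 0.24 ± 0.15 and 0.07 ± 0.09, did not pass.

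The next comparison asked what AZD8055 does to these transcripts in the whole tissue. With all 3 libraries, 1 of 45 mitosis genes was lower in AZD input than in tumor input and 0 were higher, with a median log2 fold of -0.21. Of all genes, 7.89% were higher and 9.17% lower, 17.1% in either direction. The gene that passed was Racgap1, at 74.6, 55.9 and 42.6 CPM with AZD and 112, 87.0 and 88.8 in tumor (-0.69 ± 0.19, adjusted p 0.0306). At an unadjusted p under 0.05, 1 gene was higher and 3 were lower, against 32.5% of all genes in either direction. Top2a was at 343, 133 and 96.7 CPM with AZD and 302, 267 and 229 in tumor, so that replicate 1 lay above the tumor libraries and replicates 2 and 3 below them. Its log2 fold was -0.43 ± 0.39 (adjusted p 0.476). Cdk1, at 51.2, 26.4 and 19.9 with AZD, showed the same split (-0.19 ± 0.32). Mki67 was at 225, 91.3 and 79.1 with AZD (-0.70 ± 0.33), where replicate 1 lay among the tumor libraries and the others below them.

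Without AZD input replicate 1, 24 of the 45 genes were lower than in tumor input and 0 higher, with a median of -0.71, against 9.0% lower and 7.09% higher of all genes. That replicate was set apart by the levels of these same genes, so the calls that follow are a description. All 5 spindle genes passed, from Ckap2l (-1.49 ± 0.18) and Tpx2 (-1.02 ± 0.17) to Ckap2 (-0.62 ± 0.19). In chromosome structure Mki67 (-1.34 ± 0.17), Top2a (-1.18 ± 0.24), Ncapg (-0.95 ± 0.22) and Smc4 (-0.65 ± 0.16) passed, and Smc2 (-0.37 ± 0.12) and Ncapd2 (-0.20 ± 0.18) did not. Ccna2 (-1.28 ± 0.17), Foxm1 (-1.05 ± 0.27) and Ube2c (-1.34 ± 0.26) passed as well, while Cdk1 (-0.70 ± 0.24, adjusted p 0.0770) and Plk1 (-0.74 ± 0.28, adjusted p 0.0916) did not. In the passenger complex Aurkb (-1.02 ± 0.41), Birc5 (-0.63 ± 0.24) and Cdca8 (-0.24 ± 0.25) did not pass. Leaving out AZD input replicate 2 or 3 instead, or tumor input replicate 1, left 0 genes past the threshold in edgeR. At an unadjusted p under 0.05 these fits gave 1 higher and 1 lower, 1 and 1, and 0 and 3. The shares of all genes in these fits are not given here. In the fit of all libraries 32.5% of all genes were under that p in either direction. The glioma-lineage list was lower in AZD input for 12 of 12 genes with all libraries (median -1.14) and without replicate 1 (median -1.24). The DNA replication list was lower for 12 of 30 genes with it and 17 of 30 without it.

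In IP, all 45 mitosis genes were lower in AZD IP than in tumor IP, with a median log2 fold of -2.18 and a range from -3.10 to -0.83, against 33.5% lower and 25.1% higher of all genes (58.7% in either direction). The libraries did not overlap for 45 of 45 genes, where 34.3% of all genes lay lower without overlap. Top2a was at 45.8, 17.4 and 17.1 CPM in AZD IP and 210.4, 224 and 221 in tumor IP, and fell by 3.10 ± 0.35 on the log2 scale. Pbk, at 12, 3.16 and 3.80 against 51.8, 43.9 and 51.9, fell by 3.10 ± 0.43. Replicate 1 was again the highest AZD library for both, but lay below every tumor library. Without AZD IP replicate 1 the count was again 45, with a median of -2.61.

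By role, the median fall in IP was 2.46 for the spindle, 2.39 for exit, 2.29 for entry, 2.14 for the checkpoint, 2.12 for the kinases, 2.03 for the kinetochore, 2.01 for cytokinesis, 1.97 for chromosome structure and 1.94 for the passenger complex, on the log2 scale. Single genes ranged more widely. Nuf2 (-2.83 ± 0.27), Ect2 (-2.74 ± 0.28), Bub1 (-2.72 ± 0.42) and Cdk1 (-2.72 ± 0.24) were among the lowest. Ncapd2 (-0.83 ± 0.11), Mad2l1 (-0.87 ± 0.14), Cdc25b (-0.96 ± 0.16), Cenpe (-1.11 ± 0.34) and Melk (-1.17 ± 0.24) moved least. Anln, which did not pass between tumor and control, was at 18.1, 14 and 18.7 CPM in AZD IP and fell by 1.59 ± 0.17 from tumor IP. Of the other 120 mitosis genes, 84 fell and 7 rose in this comparison (median -0.96), against 33.5% lower and 25.1% higher of all genes. The kinesins were lower for 12 of 12 (median -2.13).

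**Figure D5:**
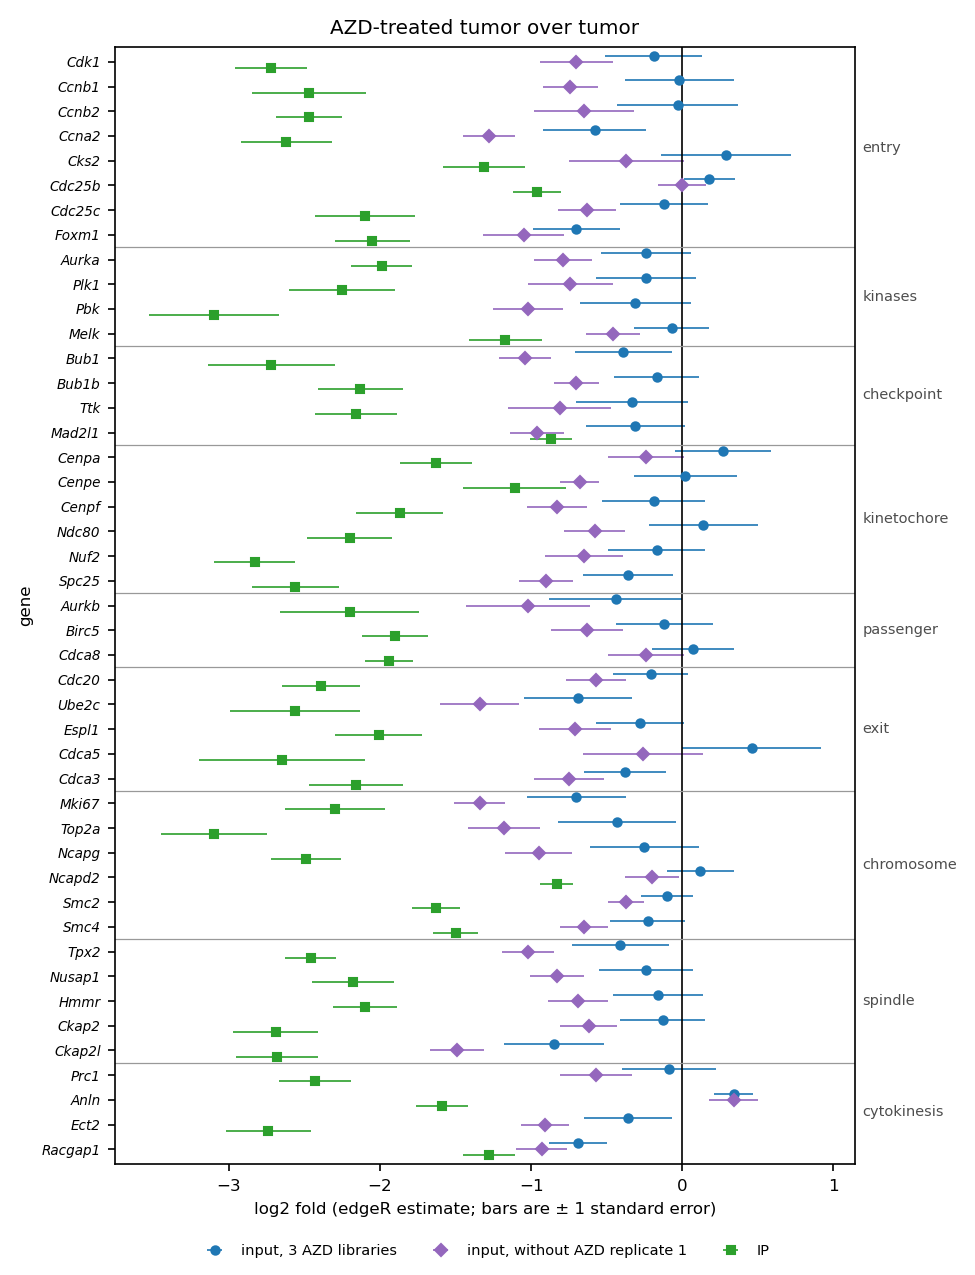
Log2 fold of AZD-treated tumor over tumor for each mitosis gene in input with 3 AZD libraries (circles), in input without AZD replicate 1 (diamonds) and in IP (squares), with bars of 1 standard error. Input values with all libraries scatter around -0.21, those without replicate 1 around -0.71, and IP values around -2.18.

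Markers of other cells moved in the same IP comparison. The glioma-lineage genes were lower in AZD IP for 12 of 12 (median -3.01), the astrocyte list for 8 of 8 (-1.65), the oligodendrocyte list for 8 of 8 (-2.0), the microglia list for 9 of 10 (-2.27) and the endothelial list for 9 of 9 (-2.31). Excitatory neuron genes were higher for 9 of 10 (1.17). The summed level of the oligodendrocyte list lay between 372 and 577 CPM in AZD IP and between 759 and 1679 in tumor IP, and that of the glioma lineage between 622 and 859 and between 5627 and 6118. No defining marker in these lists was at 0 in either group. The part of these shifts in the values of the mitosis genes was not tested, and the library set differs between AZD and tumor.

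Set against control rather than tumor, AZD-treated tissue still held high levels of these transcripts. In input 45 of 45 genes were higher than in control (median 3.94), against 20.7% higher and 16.0% lower of all genes (36.8% in either direction). Without AZD input replicate 1 the count was 43 and the median 3.25. In IP 41 were higher and 1 lower (median 1.93), against 16.0% higher and 17.4% lower (33.3% in either direction). Cenpf, at 38.4, 16.3 and 16.9 CPM in AZD IP and 2.90, 2.38 and 1.67 in control IP, had the highest log2 fold at 3.33 ± 0.35. Anln was the gene that fell, by 1.51 ± 0.17, and Cdc25b (-0.14 ± 0.17), Mad2l1 (0.22 ± 0.14) and Cdca5 (1.54 ± 0.67, adjusted p 0.103) did not pass. Without AZD IP replicate 1, 39 genes were higher and 1 lower (median 1.57). These comparisons share the AZD libraries with those against tumor. As a description of the means, the AZD level kept a median of 81.5% of the tumor's gain over control in input, over the 43 genes that rose there, and 16.4% in IP, over 44 genes. Without AZD replicate 1, a setting added after the data were seen, these medians were 55.6% and 10.9%.

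IP and input were also compared within each condition. In control, 39 of the 45 genes passed the filter on low counts, and Cks2, Cdc25c, Ndc80, Aurkb, Ube2c and Cdca5 did not. Of the 39, 1 was higher in IP and 4 were lower (median -0.21), against 17.7% higher and 18.8% lower of all genes (36.5% in either direction). Nusap1, which binds spindle microtubules, was at 3.58, 3.79 and 4.14 CPM in control IP and 1.34, 0.776 and 1.59 in control input, and was higher by 1.62 ± 0.26 (adjusted p 4.74e-04). Its libraries did not overlap. The genes lower in IP were Cdc25b (-0.95 ± 0.14), Ncapd2 (-0.61 ± 0.11), Bub1b (-0.69 ± 0.20) and Ccnb2 (-1.31 ± 0.44).

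In tumor, 2 genes were lower in IP than in input and 0 higher (median -0.26), against 2.98% lower and 2.11% higher of all genes (5.09% in either direction). They were Cdca3, at 15.8, 14.2 and 14.3 CPM in IP and 25.2, 22.5 and 21.3 in input (-0.63 ± 0.13), and Ncapd2, at 44.1, 44.4 and 46.4 against 66.3, 63.7 and 70.0 (-0.56 ± 0.09). The overlapping Scarna10 was at 75.7, 41.3 and 34.4 in tumor IP and 274, 164 and 173 in tumor input. Its part in the Ncapd2 values was not tested. With the replicate number as a block, which pairs input and IP libraries of the same number, 22 genes were lower and 0 higher, against 18.1% lower and 17.6% higher of all genes. The blocked fit added, among others, Ube2c (-0.68 ± 0.13), Espl1 (-0.64 ± 0.12), Smc4 (-0.46 ± 0.08), Racgap1 (-0.46 ± 0.08) and Top2a (-0.27 ± 0.08). In the fit without the block, leaving out each library in turn left 0 or 1. The sums in IP were 76.7%, 88.3% and 88.4% of those in input in the numbered tumor pairs, and 91.5%, 94.9% and 88.8% in the control pairs.

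With AZD the fractions parted. In the AZD libraries 44 of 45 genes were lower in IP than in input and 0 higher (median -2.12), against 32.5% lower and 29.0% higher of all genes (61.5% in either direction). In the numbered pairs the summed IP level was 23.7%, 25.7% and 32.4% of the input level, so replicate 1 did not stand apart in this ratio. Cdk1 was at 7.28, 3.98 and 4.47 CPM in AZD IP and 51.2, 26.4 and 19.9 in AZD input, a log2 fold of -2.67 ± 0.38. Cyclin B1, at 8.75, 2.60 and 2.99 against 51.0, 17.1 and 17.9, stood at -2.68 ± 0.57, and Top2a at -2.87 ± 0.55. Mad2l1 alone did not pass. It was at 8.42, 9.0 and 10.3 CPM in IP and 25, 8.42 and 10.2 in input, so that the fractions overlapped (-0.66 ± 0.37, adjusted p 0.154). Leaving out AZD replicate 1 in both fractions, an alternative chosen after the data were seen, gave 44 lower genes and a median of -2.02. Leaving it out of input alone gave 42 and a median of -1.59. Lists of other cells were lower in AZD IP as well: glioma-lineage 12 of 12 (median -2.20), astrocyte 8 of 8 (-2.15), oligodendrocyte 8 of 8 (-2.13), microglia 8 of 10 (-2.48), endothelial 9 of 9 (-2.63) and inhibitory neuron 9 of 9 (-1.81). Excitatory neuron genes were higher for 10 of 10 (1.40). The summed glioma-lineage level lay between 3199 and 4641 CPM in AZD input and between 622 and 859 in AZD IP. The part of this shift in the values of the mitosis genes was not tested.

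The change in the IP-over-input ratio between conditions was tested in a fit of all 18 libraries. Between tumor and control, 0 of 45 genes passed in edgeR (median -0.07), against 0.0687% of all genes called, and DESeq2 called 0. An unadjusted p under 0.05 was reached by 1 higher and 1 lower gene, against 3.30% of all genes in either direction. Nusap1 had the lowest value, -1.72 ± 0.54, and was the 1 gene of the 45 called when the replicate block was used. Between AZD and tumor, 41 of 45 genes had a lower ratio with AZD and 0 a higher one (median -1.88), against 20.8% lower and 12.3% higher of all genes (33.1% in either direction). Mad2l1 (-0.50 ± 0.39), Racgap1 (-0.54 ± 0.27), Cenpe (-1.08 ± 0.53) and Aurkb (-1.70 ± 0.69) did not pass. With the replicate block Racgap1 (-0.53 ± 0.12), Cenpe (-1.02 ± 0.16) and Aurkb (-1.66 ± 0.23) passed as well, and Mad2l1 (-0.32 ± 0.29, adjusted p 0.387) did not. The shares of all genes called in the blocked fit are not given here, so its calls cannot be set against them. The 120 other mitosis genes had 63 lower and 3 higher (median -0.78), with 12 of 12 kinesins lower. Without AZD input replicate 1 the count for the 45 was 35 (median -1.36), and without replicate 1 in both fractions 41 (median -1.74).

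The levels of the mitosis genes were also set beside those of 2 other programs in the same library, as the log2 ratio of summed CPM (mean ± SD, n = 3), with no test. Beside 30 DNA replication genes, which serve S phase, the ratio was -0.04 ± 0.05 in control input and 1.42 ± 0.16 in tumor input, and -0.26 ± 0.10 and 1.28 ± 0.18 in IP. The replication list rose too in tumor input, for 29 of 30 genes, with a median of 2.19. With AZD the ratio was 1.57 ± 0.29 in input, where replicate 1 stood at 1.90 and the others at 1.41 and 1.39, and 0.43 ± 0.25 in IP, where they stood at 0.71, 0.22 and 0.35. The AZD-minus-tumor difference in input was 0.15, and -0.02 without replicate 1. The AZD IP libraries, at 0.22 to 0.71, thus lay between control IP and tumor IP with no overlap. In IP over input with AZD, the replication genes had a median of -1.10, with 21 of 30 lower.

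Beside the 12 glioma-lineage genes the ratio lay closer together across groups, at -1.77 ± 0.06 in control input, -1.59 ± 0.19 in control IP, -1.96 ± 0.06 in tumor input and -1.86 ± 0.07 in tumor IP. With AZD it was -1.45 ± 0.44 in input, where replicate 1 stood at -0.94 and the others at -1.70 and -1.71, and -0.95 ± 0.33 in IP. All AZD libraries, in both fractions, stood above the tumor libraries of their fraction. The sign of the tumor-minus-control difference in input (-0.18) turned when the mean log2(CPM + 1) over genes replaced the sum (0.06).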

How the data were processed

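The authors deposited raw counts per gene symbol, not normalized, for 18 libraries. Per the labels, RNA came from RNeasy columns, and the NEBNext Ultra Directional kit was used for library preparation. STAR, mm10 and DESeq2 are listed, without roles, in the submitters' processing notes. Versions, counting tool and strand use are not stated there.

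Libraries were scaled by TMM, genes kept by filterByExpr, and groups compared by the quasi-likelihood F test of edgeR 4.0.16 under R 4.3.3. The p-values were adjusted by Benjamini-Hochberg over all genes tested and called under 0.05. The 11 comparisons used the 6 libraries of a condition (IP against input), the 9 of a fraction (conditions) or all 18 (IP minus input). Level sums and ratios have no test. No 2 libraries held identical values (0 pairs). The tests were tested on simulated data.

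The 45 genes and the other lists were chosen with earlier results of these data known. Any of the 45 could be named. From each list of other mitosis genes the 2 with the smallest adjusted p in tumor against control input could be named, with up to 2 others that missed the threshold, and from each cell type list the first gene. Overlapping genes and promoters came from RefSeq tables of GRCm38.p6, matching 21568 symbols.

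Same-number input and IP libraries deviated together (r 0.18 to 0.24 in control, 0.49 to 0.74 in tumor, 0.23 to 0.47 with AZD, over 16016 genes), each matching its own number best, so the numbers pair fractions within a condition. Between conditions, same-number libraries of a fraction correlated at -0.1 to 0.29. Each matched its own number best only for control IP against tumor IP (r 0.04 to 0.08), and the main fits did not pair conditions.

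Alternatives were DESeq2 1.42.0, other scalings, no filter, the replicate block, a single fit and leaving out each replicate.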

Additional observations from a re-analysis of the deposited data

Results flagged for a closer look

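The difference in the IP-over-input ratio between AZD and tumor was tested as a contrast in edgeR. The ratio was called lower with AZD for 41 of the 45 mitosis genes, against 20.8% lower and 12.3% higher of all genes. The lowest log2 values were -3.05 ± 0.76 (SE) for sororin (Cdca5), -2.73 ± 0.62 for Pbk, -2.60 ± 0.46 for Nuf2, -2.60 ± 0.58 for Top2a and -2.50 ± 0.43 for Ckap2. Cdca5 rests on few counts in AZD IP, where its levels were 1.63, 0.223 and 0.457 CPM. Tumor and AZD libraries lie in different library sets, so set and treatment cannot be told apart.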

How the results depend on the processing

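Over all alternatives, 7625 gene-level results kept their side of the threshold, 99 lost and 79 gained the call, and 0 calls reversed direction. Some results that did not pass changed sign. Ndc80 for AZD against tumor in input, at 0.14, ranged from -0.58 to 0.44. The counts of mitosis genes called in tumor against control, AZD against control, AZD against tumor in IP, AZD IP against input, and AZD against tumor for IP minus input stayed within 1.5 times under every alternative run. For AZD against tumor in input the count of 1 became 2 with DESeq2 and 4 with the replicate block, and 0 to 24 when each replicate was left out. For control IP against input the count of 5 became 3 in a single fit, and 3 to 6 with replicates left out. For tumor IP against input the count of 2 became 4 with plain library totals, 7 with DESeq2, 22 with the replicate block, 0 in a single fit, and 0 to 1 with replicates left out. For IP minus input, tumor against control, the count of 0 became 1 with the replicate block and 1 without AZD replicate 1 in both fractions, an alternative chosen after seeing the data. The block moved no other count by over 1.5 times.

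The log2 ratio to glioma-lineage genes, tumor minus control in input (-0.18), became 0.06 on mean log2(CPM + 1) and -0.44 without the 3 most abundant members (Smc2, Mki67, Top2a), and in IP (-0.27) -0.03 and -0.51. Without those 3, the ratio to replication genes, tumor minus control, was 1.21 in input (1.46 with them) and 1.29 in IP (1.54). The AZD-minus-tumor ratio to replication genes in IP (-0.85) was -0.59 on mean log2(CPM + 1). The cause was not tested. Genes with few counts in control limit the precision of the folds against it.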
